A study of Homo sapiens with 4 samples.

Results

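Control IgG precipitates of untreated and doxycycline-treated LM2-4175 cells were compared for the RNA that came down with them, which is the background of an EXOSC10 immunoprecipitation experiment. The comparison takes 2 of the 4 libraries of the series, No Dox IgG and Dox IgG, with 1 library a side. It covers all 12820 gene symbols of the table other than the 18 of ribosomal RNA, and 3009 of them had at least 100 reads in the pair. LM2-4175 cells were selected from the breast cancer line MDA-MB-231 for metastasis to lung, and every culture, the untreated ones included, carried a doxycycline-inducible CerS4 construct. Dox IgG cells had received 5 µg/mL doxycycline for 48 h, and No Dox IgG cells none. The other pair of libraries, No Dox EXOSC10 and Dox EXOSC10, came from the same treatments with an EXOSC10 antibody and is used here only for values set side by side. The series was made to study a complex of PD-L1 with Caprin-1 in mRNA decay when lipid metabolism is altered. Nothing in the labels says whether the IgG and the EXOSC10 library of a treatment came from the same culture.

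In RNA immunoprecipitation, a non-specific immunoglobulin serves to record what sticks to the beads and to the antibody without an antigen. Abundant RNAs tend to lead such a background, and a difference in the cells' own RNA can pass into it. EXOSC10 is a nuclear exonuclease of the RNA exosome, which trims and degrades RNA from the 3' end. CerS4 is a ceramide synthase, which joins a fatty acid to a sphingoid base. Caprin-1 is an RNA-binding protein of stress granules.

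The No Dox IgG library held 3723337 estimated reads and the Dox IgG library 7575166. Ribosomal RNA genes took 71.7% and 83.8% of them, which left 1053003 and 1229750 reads on other genes. After scaling, an equal level corresponded to 1.29 reads in Dox IgG for each read in No Dox IgG. A ratio below is the log2 ratio of Dox IgG over No Dox IgG on the scale log2(scaled CPM + 0.2), and the range in parentheses is its exact 95% interval of counting error. CPM are reads scaled to 1000000 per library. With 1 library a side the ratios have no replicate check, no p-value is given, and a gene is called higher or lower when it had 100 reads in the pair and differed at least 2-fold.

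The identity of the libraries could be checked in part. CERS4, the gene of the construct, and CD274, the PD-L1 gene, have no entry among the values used here. Induction was therefore not measured, and the direction of every ratio rests on the labels. Of 12 transcripts typical of MDA-MB-231, 10 had at least 20 reads in the pair. They were led by VIM, which encodes the mesenchymal filament protein vimentin, with 2893 reads in No Dox IgG and 2344 in Dox IgG. S100A4, with 4 and 1.98 reads, and MMP1, with 5 and 8, fell short of 20. Of 10 luminal epithelial markers, 8 had an entry and 3 had at least 20 reads: KRT19 with 205 and 185, FOXA1 with 35 and 48, and GATA3 with 17 and 43. CDH1, which encodes the epithelial cadherin, had under 1 read in each IgG library. Of 8 endothelial markers, PECAM1 alone had an entry, with 2 and 6 reads. Of 19 blood and immune markers, CD68 had 26 and 48 reads and LYZ 2 and 0. Of 9 fibroblast markers, 3 had an entry, and their summed reads were 34 in No Dox IgG and 69 in Dox IgG, with COL1A2 at 8 and 40 reads. Fewer cells of a type and less RNA per cell cannot be told apart in such libraries, and the part of these cell types in any result was not tested.

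Most genes had similar levels in the IgG background of treated and untreated cells. Among the 3009 genes, 85 were higher in Dox IgG (2.82%) and 104 lower (3.46%). The median ratio was -0.06, and the 5th and 95th percentiles were -0.90 and 0.79. Scaled by the total of non-ribosomal reads, 121 were higher and 72 lower, and on CPM as deposited 12 and 802. On CPM as deposited every ratio lay 0.66 lower, so that all directions below are relative to the bulk of the genes, and a ratio or median between 0 and 0.66, captions included, turns below 0 there. Counting error alone did not cover the spread, since the interval of 1420 genes left out 0, 594 of them above and 826 below. CAPRIN1 had 826 reads in No Dox IgG and 852 in Dox IgG, a ratio of -0.32 (-0.46 to -0.18). EXOSC10 mRNA had 6 and 21 reads, too few for a call. In the EXOSC10 pair, 399 of 6566 genes were higher with doxycycline (6.08%) and 250 lower (3.81%).

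**Figure D1:**
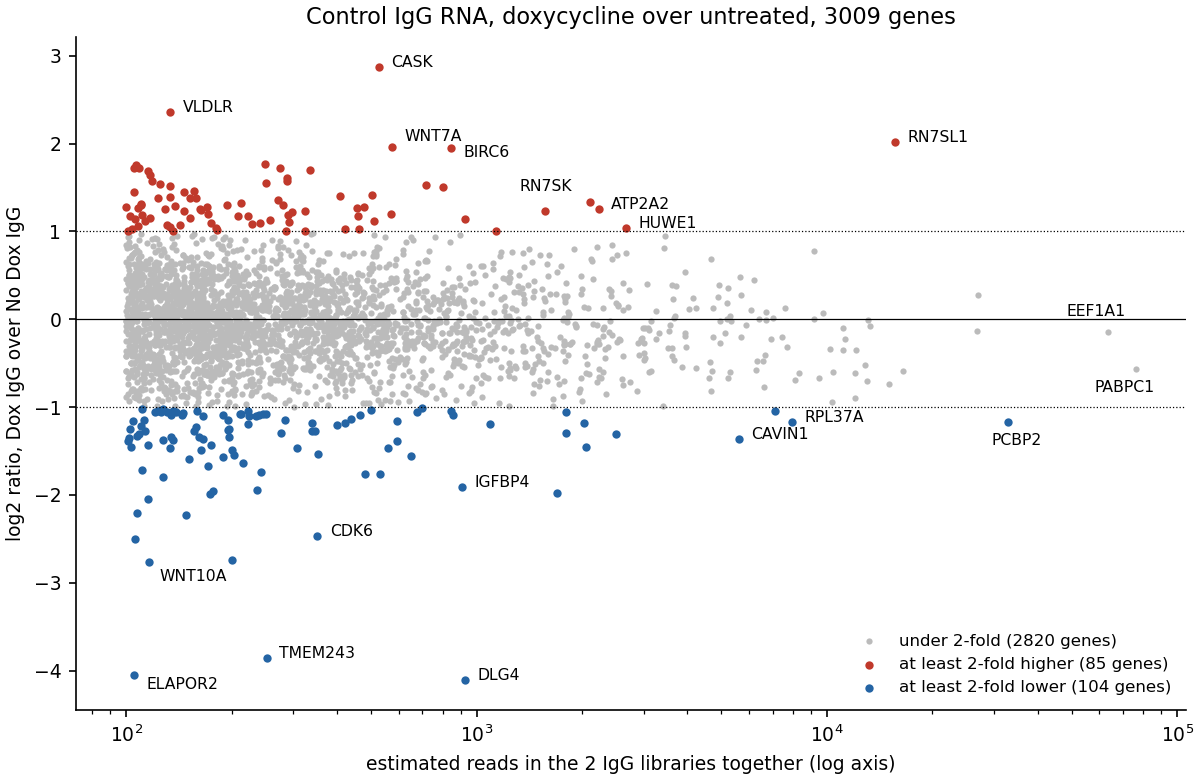
Log2 ratio of Dox IgG over No Dox IgG (vertical axis) against the estimated reads of both IgG libraries (horizontal log axis) for the 3009 genes with at least 100 reads, 1 point per gene. Red points are the 85 genes at least 2-fold higher, blue points the 104 at least 2-fold lower, and dotted lines mark 2-fold. CASK and the 7SL RNA gene RN7SL1 stand out above, and DLG4, ELAPOR2 and TMEM243 below.

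Several of the lowest ratios lay within 1 segment of the long arm of chromosome 7, from ELAPOR2 to CDK6 (GRCh38, chromosome 7 from 86876906 to 92836573). The segment was marked out after the values were seen and has no test. ELAPOR2, which encodes a transmembrane protein of endosomes and lysosomes, had 98 reads in No Dox IgG and 7 in Dox IgG, a ratio of -4.05 (-5.53 to -3.08). TMEM243, a transmembrane protein gene, had 232 and 19.96 reads (-3.86), and with DMTF1, which it overlaps, 344 and 70.96 reads (-2.63). CDK6, the cyclin D-dependent kinase that drives entry into S phase, had 285 and 66 reads (-2.47, -2.89 to -2.09). FZD1, a frizzled receptor for Wnt ligands, had 84 and 23 reads (-2.20). DMTF1, which encodes a cyclin D-interacting transcription factor, had 112 and 51 reads (-1.49) by itself, and GATAD1, a zinc finger gene, had 93 and 34 reads (-1.80). RUNDC3B, below the minimum for a call, had 83 reads in No Dox IgG and 1 in Dox IgG (-5.998, -12.1 to -4.22), the lowest ratio of all genes with 20 reads. It overlaps the drug efflux pump gene ABCB1, and both together had 92.0 reads and 1 read (-6.14).

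The segment held 31 genes with an entry. Of its 14 genes with at least 20 reads, 13 had a ratio below 0 and 9 were at or below -1, with a median of -1.79. By comparison, 7.52% of all 7298 genes with 20 reads were at or below -1, and the other 346 such genes of chromosome 7 had a median of -0.00. The 14 genes together had 1500 reads in No Dox IgG and 634 in Dox IgG. The median was 0.16 over 7 genes within 10 Mb before the segment and 0.23 over 14 genes within 6 Mb after it. The ends were set at genes with low ratios, so a contrast with the flanks was in part fixed by that choice. ANKIB1, an ubiquitin ligase gene inside the segment, had 251 and 207 reads (-0.64), and CYP51A1, a cholesterol synthesis gene, 111 and 97 reads (-0.56). AKAP9, a scaffold of the Golgi and centrosome, was the exception among the 14 at 0.13, with 39 and 55 reads. Segment genes under 20 reads lay on both sides of 0, such as STEAP4 at 4.17 and STEAP1 at -2.10. Of 443 windows of 5 Mb with at least 5 genes, the lowest median was -2.88, and the next lowest was -0.77. The lowest was over 6 genes of this segment, in the window from 85000001 to 90000000. The following window, to 95000000, holds the rest of the segment and genes after it. Its median was -0.22 over 15 genes, rank 60 from the lowest.

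Most of these genes ran the other way in the EXOSC10 pair, where 12 of the 14 were above 0, with a median of 0.82 against -0.07 for all genes. AKAP9 was above 0 in both pairs, at 0.13 with IgG and 0.62 with EXOSC10. DMTF1 and GATAD1, both called lower in the IgG pair, were below 0 with EXOSC10 too, at -0.14 and -0.44. ELAPOR2 had 1.33 reads in No Dox EXOSC10 and 58 in Dox EXOSC10, and TMEM243 had 14.97 and 254. High values of ELAPOR2 and TMEM243 were thus found in No Dox IgG and Dox EXOSC10, and low values in Dox IgG and No Dox EXOSC10, a pattern that crosses the treatment labels. Whether libraries or cultures were exchanged was not tested. The labels are used as given. An exchange of No Dox IgG with Dox IgG would turn the direction of the IgG ratios. An exchange of No Dox EXOSC10 with Dox EXOSC10 would leave the IgG ratios as they are.

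**Figure D2:**
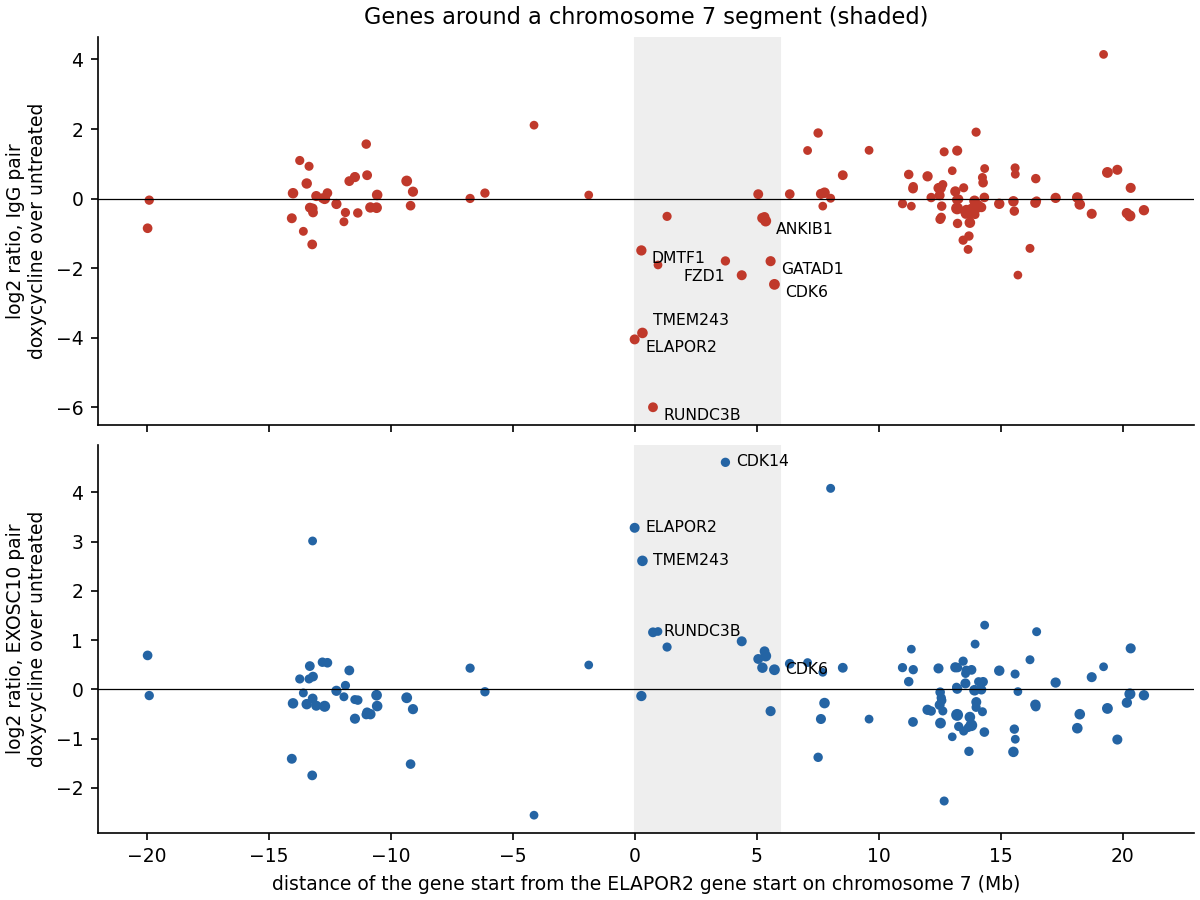
Log2 ratio of doxycycline over untreated for chromosome 7 genes with at least 20 reads in the IgG pair, in the IgG pair (top) and the EXOSC10 pair (bottom), against the distance of the gene start from the start of ELAPOR2 in Mb. The shaded segment runs from ELAPOR2 to CDK6, point size grows with the reads, and 13 of the 14 segment genes lie below 0 at the top while 12 lie above 0 at the bottom.

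Promoter windows of 300 bases are shown for 3 of these neighbours and for WNT7A, which was higher in Dox IgG. They were chosen because these 3 genes had ratios in 1 direction and WNT7A in the other. The windows are from RefSeq (GRCh38.p14), 250 bases before to 50 after a listed start, and are written 5' to 3' on the strand of the gene. Capitals mark GC boxes (GGGCGG or, on the other strand, CCGCCC) and CCAAT boxes (CCAAT or ATTGG). RUNDC3B lies at chr7:87628148-87628447 on the plus strand, TMEM243 at chr7:87220490-87220789 on the minus strand, CDK6 at chr7:92836524-92836823 on the minus strand and WNT7A at chr3:13880022-13880321 on the minus strand.
RUNDC3B: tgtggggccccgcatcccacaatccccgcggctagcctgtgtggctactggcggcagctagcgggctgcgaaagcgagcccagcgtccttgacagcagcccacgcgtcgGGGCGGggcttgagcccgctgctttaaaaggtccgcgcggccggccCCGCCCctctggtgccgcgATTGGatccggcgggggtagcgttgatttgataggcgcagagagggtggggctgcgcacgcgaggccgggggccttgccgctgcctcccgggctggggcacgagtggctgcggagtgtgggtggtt
TMEM243: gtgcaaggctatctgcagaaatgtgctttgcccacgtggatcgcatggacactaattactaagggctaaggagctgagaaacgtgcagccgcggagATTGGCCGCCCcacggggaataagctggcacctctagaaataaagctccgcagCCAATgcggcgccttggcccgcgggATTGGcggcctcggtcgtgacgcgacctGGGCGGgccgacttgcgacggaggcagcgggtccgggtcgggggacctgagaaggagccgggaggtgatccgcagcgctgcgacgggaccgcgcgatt
CDK6: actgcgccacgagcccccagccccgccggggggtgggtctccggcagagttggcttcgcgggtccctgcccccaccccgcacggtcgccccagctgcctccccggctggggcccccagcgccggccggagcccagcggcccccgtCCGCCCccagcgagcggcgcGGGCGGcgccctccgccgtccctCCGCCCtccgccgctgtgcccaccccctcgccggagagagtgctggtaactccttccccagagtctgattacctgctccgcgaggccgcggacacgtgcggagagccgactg
WNT7A: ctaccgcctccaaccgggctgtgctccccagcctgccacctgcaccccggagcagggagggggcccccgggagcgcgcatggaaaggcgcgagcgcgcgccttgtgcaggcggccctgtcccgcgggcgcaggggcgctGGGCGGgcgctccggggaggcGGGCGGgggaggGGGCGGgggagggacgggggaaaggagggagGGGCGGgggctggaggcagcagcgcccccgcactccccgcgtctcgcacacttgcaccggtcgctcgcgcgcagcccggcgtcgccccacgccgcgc
RUNDC3B held 2 GC boxes and 1 CCAAT box, TMEM243 2 and 3, CDK6 3 and 0, and WNT7A 4 and 0. Among 35116 promoter windows of this length, 44.95% held a GC box and 34.6% a CCAAT box. No window of the 4 held a TATA box (TATAAA or TTTATA), which 11.5% of all windows did. The G and C content ran from 64.3% in TMEM243 to 80.3% in WNT7A, against a median of 58.7% over all windows. A match in these letters is a description only.

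Among genes whose summed reads were whole in both libraries, 53 were higher (2.62%) and 69 lower (3.42%) of 2020. CASK, a membrane-associated guanylate kinase that organises synaptic and epithelial junctions, had 50 reads in No Dox IgG and 475 in Dox IgG, a ratio of 2.87 (2.46 to 3.33) or 7.30-fold. WNT7A, a secreted Wnt ligand, had 95 and 479 reads (1.96, 1.65 to 2.30). BIRC6, a giant ubiquitin-conjugating inhibitor of apoptosis, had 141 and 702 reads (1.94, 1.69 to 2.22). These 3 genes lie on chromosomes X, 3 and 2. KRT17, a basal keratin, had 52 and 222 reads (1.72), ZFHX3, a large homeodomain zinc finger protein, 151 and 565 (1.53), and MACF1, a spectraplakin that links actin to microtubules, 172 and 630 (1.503). Better counted but smaller was the difference of ATP2A2, the calcium pump of the endoplasmic reticulum, with 546 and 1688 reads (1.26, 1.12 to 1.40). USP9X, a deubiquitinase, had 388 and 1180 reads (1.24, 1.07 to 1.41).

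The remaining whole-read genes on the higher side were sparser. CPEB2, which binds polyadenylation elements in mRNA, was at 1.61, ATP11B, a phospholipid flippase, at 1.55, UBR3, a ubiquitin ligase, at 1.41, DIP2C at 1.69 with 22 and 93 reads, and MYO9A, an unconventional myosin, at 1.64 with 23 and 94 reads. RANBP2, a nucleoporin of the cytoplasmic face of the pore, was at 1.27, and at 0.88 once the genes that overlap it were added. RANBP2 is therefore 2-fold higher only as a single gene. Its annotated span is 1122820 bases, and the added genes, such as CCDC138 and SEPTIN10, need not share its reads. Just inside the 2-fold limit lay NUP205, another nucleoporin, at 1.00, and just outside it PFN2, a profilin, at 0.98.

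On the lower side DLG4, which encodes the postsynaptic scaffold PSD-95, had the largest difference, with 862 reads in No Dox IgG and 64 in Dox IgG, a ratio of -4.10 (-4.51 to -3.75) or 17.2-fold lower. It overlaps ACADVL, the gene of a mitochondrial acyl-CoA dehydrogenase, and both together had 963 and 189 reads (-2.71), so the pair of genes was also lower. WNT10A, a Wnt ligand, had 98 and 18 reads (-2.77, -3.62 to -2.08). IGFBP4, a secreted binding protein of insulin-like growth factors, had 675 and 232 reads (-1.90, -2.13 to -1.69), while IGFBP2 was at -0.56, IGFBP5 at 0.18 and IGFBP7 at -0.24. CAVIN1, a coat protein of caveolae, had 3732 and 1869 reads (-1.36, -1.45 to -1.28).

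FUT8, which adds the core fucose of N-glycans, had 177 and 59 reads (-1.94). TGFB3, a ligand of the TGF-beta family, had 131 and 42 reads (-1.99), and PITX1, a homeodomain factor of the hindlimb, 88 and 27 (-2.04). SDF2, a chaperone cofactor of the endoplasmic reticulum, had 385 and 146 reads (-1.76), and SEPTIN8, a filament protein, 381 and 177 (-1.47). HEXIM1, the protein that together with 7SK RNA holds the elongation kinase P-TEFb inactive, had 244 and 108 reads (-1.54, -1.88 to -1.21). PLCD3, a phospholipase C, was at -1.64 alone and at -1.10 with its overlapping genes.

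**Figure D3:**
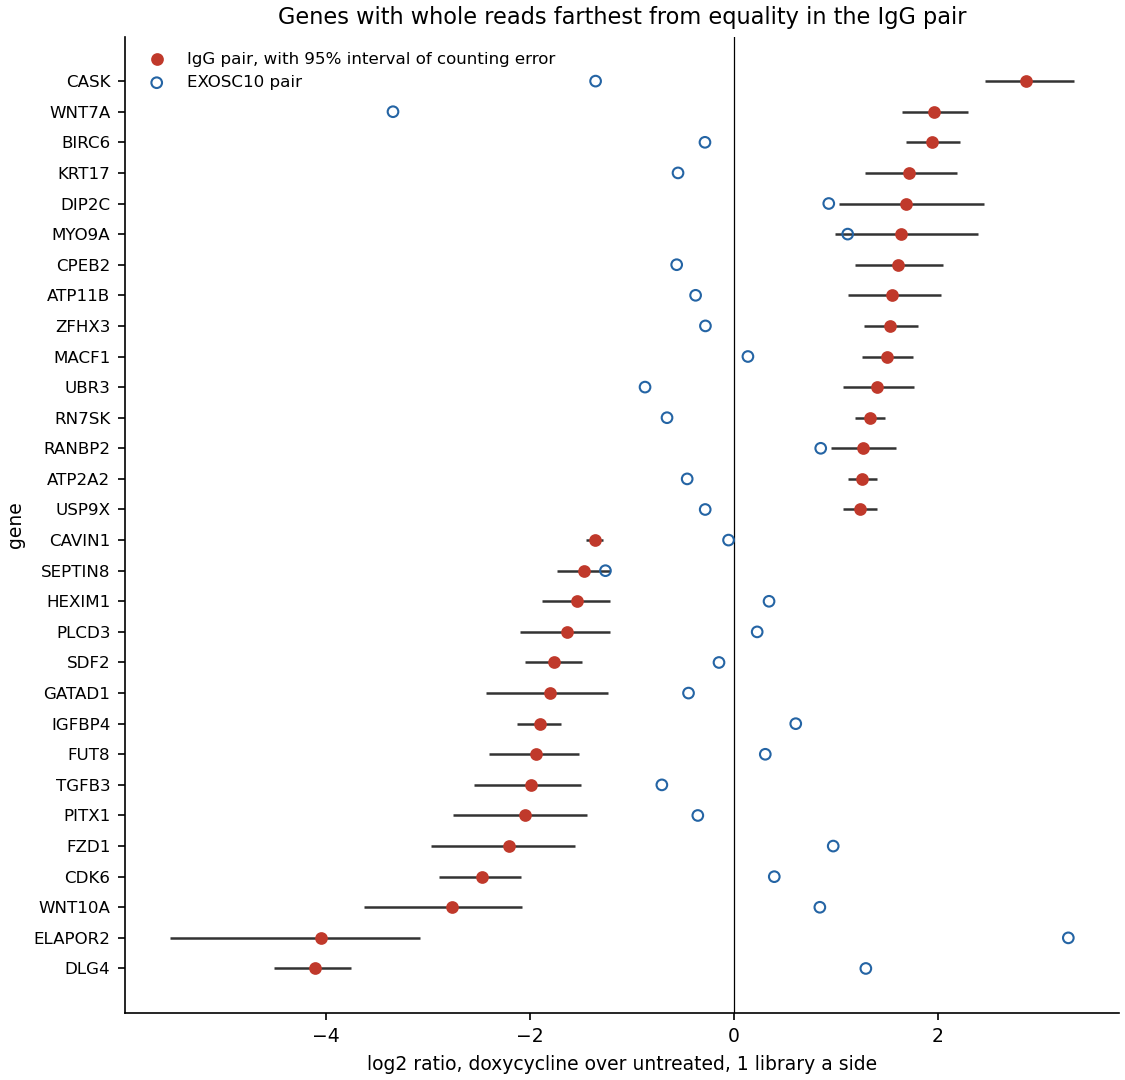
Log2 ratio of doxycycline over untreated for the 30 whole-read genes whose intervals lay farthest from 0 in the IgG pair, 15 on each side. Red points with bars are the IgG pair with the exact 95% interval of counting error, and open blue circles are the EXOSC10 pair. CASK and WNT7A lie far to the right of 0 in the IgG pair and to the left in the EXOSC10 pair, and ELAPOR2 and DLG4 the reverse.

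Genes with fractions of reads, whose values depend on how the table divided them, gave a second group. VLDLR, a lipoprotein receptor, had 17.1 and 117 reads (2.37, 1.66 to 3.23). KMT2C, a histone H3 lysine 4 methyltransferase, was at 1.77, RGPD2, a near copy of RANBP2, at 1.70, FYN, a Src family kinase, at 1.58, and KRT14, the basal keratin partner of KRT5, at 1.41. On the lower side, DNM1, the neuronal dynamin, had 168 and 31.9 reads (-2.74), and -1.82 with CIZ1, which it overlaps. The antisense gene VIM-AS1 had 1279 and 418 reads (-1.98). The strand setting of the counting is not given in the sources used here, so its reads cannot be told apart from those of VIM, and both together were at -0.96. AZIN2, a regulator of ornithine decarboxylase, was at -2.50 and -1.83 with its overlapping genes, DDAH2 at -2.23, and POTEJ, an actin-like gene with near-identical copies, at -1.77.

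A structural RNA was the most abundant of the higher genes. RN7SL1, the 7SL RNA of the signal recognition particle, had 2517 reads in No Dox IgG and 13153 in Dox IgG, a ratio of 2.02 (1.96 to 2.08) or 4.05-fold. It held fractions of reads and has a near-identical copy, RN7SL2, with 434 and 977 reads (0.80, 0.64 to 0.97), so the split between both is uncertain. Their values in the EXOSC10 pair were -0.95 and -0.18. RN7SK, the 7SK RNA that binds HEXIM1, had 496 and 1618 reads (1.34, 1.19 to 1.49), and -0.65 in the EXOSC10 pair. RPPH1, the RNA of ribonuclease P, had 76 and 58 reads (-0.75, -1.28 to -0.24), and RMRP, its relative of ribonuclease MRP, was at 0.50. Of 5 RNA polymerase III transcripts with 100 reads, 2 were higher and none lower (2.82% and 3.46% of all genes), and over 6 with 20 reads the median was 0.78 against -0.01 for all genes. The summed reads of the list were 3579 in No Dox IgG and 15914 in Dox IgG. A mixed class of 124 symbols, of other annotated types or without a RefSeq match, went from 0.442% to 1.42% of non-ribosomal reads. Long non-coding RNAs stood at 0.451% in both libraries.

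Very large ubiquitin ligases, which attach ubiquitin to proteins, lay mostly above the bulk of the genes. Their list, like the others, was chosen with earlier results of these data known, so its counts are a description only. Of 12 with 100 reads, 5 were higher and none lower (2.82% and 3.46% of all genes), and 11 of all 14 lay above the median of all genes, with a median of 0.74. After BIRC6 and UBR3 these were HERC1 with 67 and 214 reads (1.30), MYCBP2 with 73 and 216 (1.19), and HUWE1, a HECT ligase of p53 and MYC, with 731 and 1940 (1.04, 0.92 to 1.17). UBR4 was at 0.88 and TRIP12 at 0.14. HERC2 was the lowest, at -0.67. Of 40 chromatin remodelling and histone methylation genes with 100 reads, 5 were higher and none lower (2.82% and 3.46% of all genes): KMT2C, CHD7 (1.29), CHD9 (1.17), KMT2D (1.03) and the acetyltransferase gene CREBBP (1.02). The list's median was 0.25, and 32 of its 46 genes with 20 reads lay above the median of all genes. ARID1A, a subunit of the BAF remodelling complex, was at 0.73 with 512 and 1093 reads, and KDM6B, a histone H3 lysine 27 demethylase, at -0.75 with 176 and 135.

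The ratio ran with gene length. In 5 equal classes of the 2967 protein-coding genes with 100 reads, from the shortest to the longest on the genome, the median ratio was -0.22, -0.14, -0.10, 0.07 and 0.14. The shortest class held 6 higher and 30 lower genes, and the longest 35 higher and 14 lower. All 12 of the large ubiquitin ligases lay in the longest class, with a median of 0.85 there against 0.14 for the whole class. Of the 40 chromatin genes 16 lay in that class, with a median of 0.26. Of 69 cytosolic ribosomal protein genes, 61 lay in the shortest class, with a median of -0.16 against -0.22. Whether length, transcript integrity or another property of these genes goes with the ratio was not tested.

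**Figure D4:**
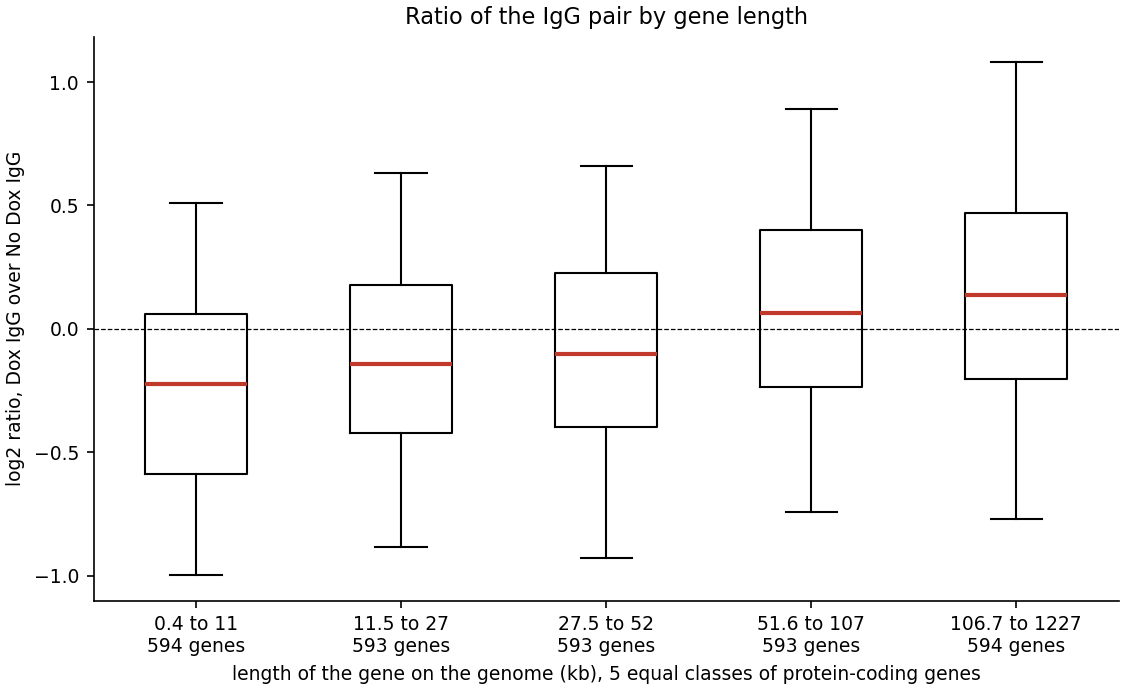
Log2 ratio of Dox IgG over No Dox IgG in 5 equal classes of protein-coding genes with at least 100 reads, ordered by length on the genome in kb. Boxes span the quartiles, red lines are medians and whiskers reach the 5th and 95th percentiles. The median goes from -0.22 in the shortest class to 0.14 in the longest.

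The most abundant mRNAs of the background mostly differed little. PABPC1, the cytoplasmic poly(A)-binding protein, had 40651 reads in No Dox IgG and 35488 in Dox IgG (-0.56, -0.58 to -0.54). EEF1A1, the elongation factor that delivers aminoacyl-tRNA, had 29404 and 34211 reads (-0.15). PKM, pyruvate kinase, was at -0.00, ATP5F1B, a subunit of ATP synthase, at -0.08, TUBA1B, an alpha-tubulin, at -0.14, GNAS, a G protein subunit, at -0.74, and EIF5A, the hypusine-bearing translation factor, at -0.59. EIF4G2, an initiation factor of non-canonical translation, was at 0.28. PCBP2, a poly(C)-binding protein, had 20883 and 11981 reads and a ratio of -1.17 (-1.20 to -1.14), and was the only one of these mRNAs called. It was also the only one called lower of 9 poly(A) and poly(C) binding protein genes (3.46% of all genes). The median of that list was -0.40.

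Cytosolic ribosomal protein genes had a median of -0.14, with 31 of 78 above the median of all genes. RPL37A, with 5064 and 2902 reads (-1.17), and RPL30, with 4378 and 2732 (-1.05), were lower, 2 of 69 with 100 reads, against 3.46% of all genes, and none was higher. Translation factors had a median of -0.02 with none called of 34, hnRNP and SR proteins 0.05 with none of 32, and the proteasome -0.18 with none of 21. Among RNA exosome genes, TENT4B, a poly(A) polymerase that marks RNA for the exosome, had 64.1 and 177 reads (1.09). It was 1 higher of 4, against 2.82% of all genes. The core subunit EXOSC3 had 36 and 13 reads (-1.78), under the minimum. Of 28 stress granule genes TIA1, a prion-like RNA-binding protein, was higher at 1.14, against 2.82% of all genes. Heat shock genes had none called of 23, and their median was 0.10.

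Wnt and TGF-beta genes were called in both directions or downward, with medians of -0.06 and -0.15. Of 18 Wnt genes with 100 reads, WNT7A was higher, and WNT10A and FZD1 lower (2.82% and 3.46% of all genes). WNT7B, the close relative of WNT7A, had 313 and 318 reads (-0.34). The receptor FZD2 was at -0.78 with 383 and 287 reads, and FZD8 at -0.40. APC, the scaffold that directs beta-catenin to destruction, had 11.1 and 74.8 reads (2.33, 1.47 to 3.45), under the minimum. Of 17 TGF-beta genes, TGFB3 and ID2, a target that inhibits basic helix-loop-helix factors, were lower (3.46% of all genes). ID2 was at -1.16 with 375 and 216 reads. The receptor TGFBR1 had 22 and 72 reads (1.32, 0.64 to 2.10). Of the immediate early genes, DUSP6, a phosphatase of ERK, was at -1.27 and IER5 at -1.26, 2 lower of 18 (3.46% of all genes).

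Synaptic scaffold and vesicle genes had the widest range of the lists, from -4.10 to 5.43. Of 11 with 100 reads, CASK was higher, and DLG4, DNM1 and VAMP2 were lower (2.82% and 3.46% of all genes). VAMP2, a vesicle SNARE, was at -1.21 with 257 and 143 reads. DLG1 and DLG3, relatives of DLG4, were at -0.10 and -0.07. Of 4 keratins with 100 reads, KRT14 and KRT17 were higher and none was lower (2.82% and 3.46% of all genes). KRT18 and KRT19, those of simple epithelia, were at -0.80 and -0.51. Keratins under the minimum lay on both sides of 0, such as KRT5 at 0.53, KRT15 at -1.24 and KRT8 at 0.93. ESRP1, an epithelial splicing regulator, had no full read in No Dox IgG and 57 in Dox IgG, at least 14.7-fold higher against a floor of 3 reads in No Dox IgG, but it held fractions and lay under the minimum. ESRP1 had 27.98 reads in No Dox EXOSC10 and 20 in Dox EXOSC10. TWIST1, a factor of epithelial-mesenchymal transition, was at -0.89 with 451 and 313 reads.

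Genes of lipid metabolism gave 1 call. Of 17 sphingolipid genes with 20 reads the median was 0.07, and none of 5 with 100 reads was called. CERS2, the ceramide synthase of very long fatty acids, had 343 and 464 reads (0.07), and CERS6 27 and 33 (-0.08). SPTLC1, a subunit of serine palmitoyltransferase, which starts ceramide synthesis, had 3.05 and 20.2 reads (2.18, 0.62 to 4.73), CERT1, which carries ceramide to the Golgi, 10.6 and 42.3 (1.58), and ORMDL3, an inhibitor of serine palmitoyltransferase, 3.27 and 20.4 (2.10). All 3 lie below the minimum and held fractions of reads. Cholesterol synthesis genes had none called of 9 and a median of 0.08. Of 12 fatty acid and lipid storage genes, VLDLR alone was called, as higher (2.82% of all genes). PLIN2, the coat protein of lipid droplets, had 4 and 21 reads (1.89).

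Histone genes were called both ways. The core histone gene H2AC16 was lower at -1.09, with 291 and 176 reads, while H4C9 was higher at 1.19, with 43 and 128 reads. Of 11 cell cycle genes, CDK6 alone was called, as lower (3.46% of all genes). CCND1, which encodes the cyclin D1 partner of CDK6, had 982 and 672 reads (-0.91). MCM7, a subunit of the replicative helicase, had 28 and 95 reads (1.38). It was the only replication or repair gene called of 14, against 2.82% of all genes higher. Of 30 actin cytoskeleton genes MYH10 (1.17) and ROCK1 (1.28) were higher, against 2.82% of all genes, and none was lower. The median of that list was -0.18, with 14 intervals below 0 and 4 above. CD47, the surface signal that restrains phagocytosis, had 56.4 and 166 reads (1.18). It was 1 higher of 4 checkpoint and antigen presentation genes, against 2.82% of all genes. PTCH1, the Hedgehog receptor, had 15.1 and 68.9 reads (1.79) under the minimum, and SMO, its partner, 123 and 190 (0.26). p53 targets had a median of 0.85 over 11 genes, but only 2 had 100 reads and neither was called.

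**Figure D5:**
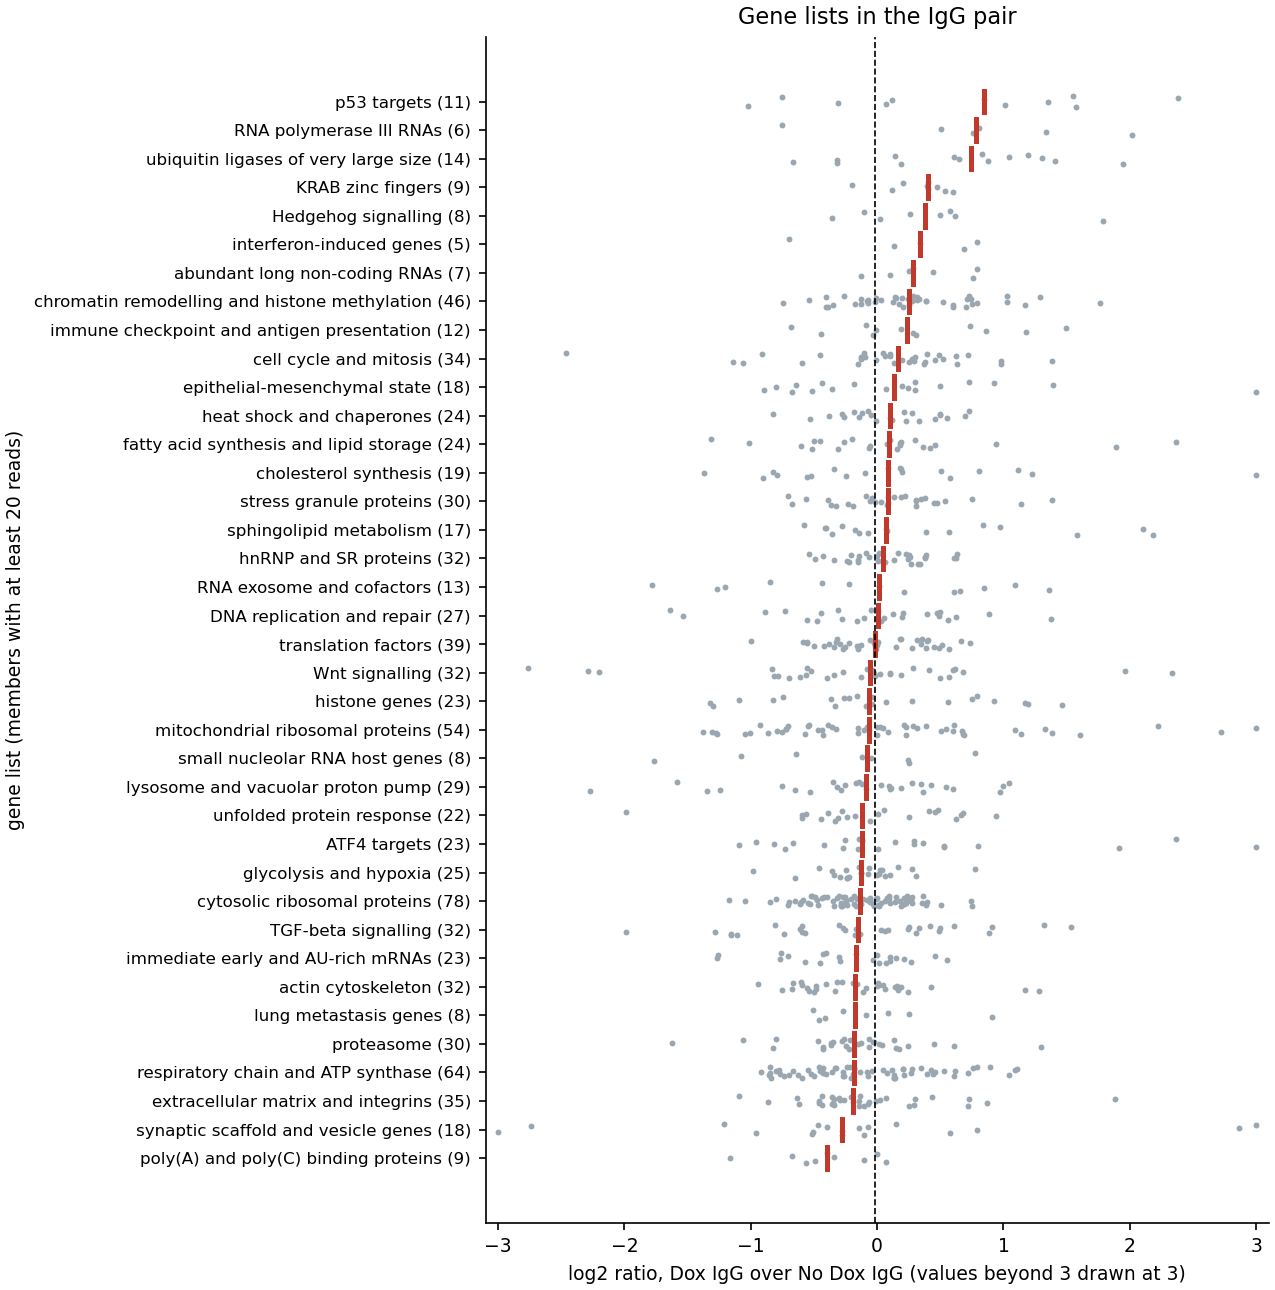
Log2 ratio of Dox IgG over No Dox IgG for the members of each gene list with at least 20 reads (grey points, number in parentheses), with the list's median as a red bar and the median of all genes as a dashed line. RNA polymerase III RNAs and very large ubiquitin ligases have medians of 0.78 and 0.74, and poly(A) and poly(C) binding proteins -0.40.

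By chromosome, the calls were uneven outside the chromosome 7 segment as well. On chromosome 17, 21 of 249 genes were lower (8.43%) and 4 higher, with a median of -0.23. These included DLG4, IGFBP4, SDF2, HEXIM1 and CAVIN1, and also HDAC5 (-1.46) and the nuclear receptor genes THRA (-1.30) and RARA (-1.29), whereas KRT14 and KRT17 on the same chromosome were higher. On chromosome 4, 9 of 80 were higher (11.25%) and none lower, with a median of 0.26; among them were CPEB2, the transcription factor gene KLF3 (1.45) and LRBA, a vesicle trafficking gene (1.33). Chromosome 4 genes with 100 reads had a median length of 76695 bases and chromosome 17 genes of 29372 bases.

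The calls of both pairs were set side by side for genes with 100 reads in each. Of the 85 genes higher in the IgG pair 79 had them, and 2 were also higher with EXOSC10, MYO9A and RALGAPA1. Another 5 were lower there, CASK, FYN, MYH10, SHOC2 and WNT7A. Of all 6566 genes with 100 reads in the EXOSC10 pair, 6.08% were higher and 3.81% lower, but many of these lacked 100 reads in the IgG pair. Of 2759 genes with 100 reads in each pair and no call in the IgG pair, 16 were higher with EXOSC10 and 135 lower. Of the 104 lower genes 90 had them, and 5 were lower with EXOSC10 as well, namely H2AC16, MEA1, SEPTIN8, SPRYD3 and STK11, and 4 were higher, DLG4, DNM1, TMEM243 and VPS25. Of all 104, 46 were above 0 in the EXOSC10 pair and 58 below, and of all 85, 33 above and 52 below. For comparison, the 2759 genes without a call, at 100 reads in each pair, had 912 above 0 and 1847 below. Values below 0 were thus the more common ones in that pair. Among the 10 genes at least 4-fold lower in the IgG pair, of which ELAPOR2, TMEM243, CDK6 and FZD1 lie in the chromosome 7 segment, 8 were above 0. WNT7A, for instance, had 152 reads in No Dox EXOSC10 and 37 in Dox EXOSC10 (-3.34), so its highest read numbers were in Dox IgG and No Dox EXOSC10.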

How the data were processed

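RNA from IgG and EXOSC10 immunoprecipitates was sequenced from 4 libraries, 1 per group. The authors deposited 1 table of CPM for transcript-level entries, read as such from its values: each column sums to 1000000 apart from a constant of 0.0001 on each entry. Partek, STAR and hg38 are named per the submitters' processing notes, without versions; no source used here states the counting rule or the strand setting. The 24015 entries were summed by symbol after the constant was taken off. The highest library of every symbol held 10.0 reads or more. Of 12838 symbols, 12540 were current in the GRCh38.p14 table of RefSeq, 194 matched an older name and 104 none.

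Reads were estimated as CPM divided by the value of 1 read, 0.269 CPM in No Dox IgG and 0.132 CPM in Dox IgG. In the 4 libraries, 67.6% to 74.0% of genes came within 0.05 of a whole read, so no count model was used. The tests that had been planned for other units were not needed. Libraries were scaled by the trimmed mean of M values over all 4 (30% of ratios and 5% of levels trimmed at each end). Factors were 0.714 in No Dox IgG and 0.453 in Dox IgG, 1.24 and 2.50 with EXOSC10. Ratios are on log2(scaled CPM + 0.2), which understates low genes. Exact Clopper-Pearson 95% intervals and the floor of 3 reads cover counting error only, since without molecular identifiers reads cannot stand for separate molecules.

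Lists are described over members with 20 reads. Genes were named by a rule: CERS4, CD274, CAPRIN1 and EXOSC10; by the interval bound nearest 0, 15 each way with whole reads in both IgG libraries and 6 each way with fractions; the 10 with most reads; and up to 4 for each of 43 lists. Others named, such as the chromosome 7 segment, keratin, frizzled and IGFBP relatives, were chosen after their values were seen. The comparison and the lists were chosen with earlier results of these data known. Alternatives varied the scaling, the minimum of reads, the pseudocount and the entries used. Python 3.11.15, numpy 2.4.6, scipy 1.17.1 and pandas 2.3.3 were used, and the calculation was tested on simulated data.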

Additional observations from a re-analysis of the deposited data

Results flagged for a closer look

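For 9 genes both pairs of libraries had at least 100 reads and differed at least 2-fold in opposite directions. With 1 library a side, the difference between the pairs was not tested. CASK was at 2.87 in the IgG pair and at -1.36 in the EXOSC10 pair. WNT7A was at 1.96 and -3.34, and FYN, which held fractions of reads, at 1.58 and -1.20. DLG4 was at -4.10 and 1.29. DNM1 was at -2.74 and 2.30, and TMEM243 at -3.86 and 2.61, both with fractions of reads. The smaller differences were those of MYH10 at 1.17 and -1.63 and SHOC2 at 1.03 and -1.51, both with fractions of reads, and of VPS25 at -1.27 and 1.07.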

How the results depend on the processing

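With 1 library a side, 1 library decides every value. No paired analysis was possible because each group has 1 library and the comparison rests on no test. On CPM as deposited, the main 85 higher and 104 lower genes became 12 and 802, where the ribosomal share of Dox IgG enters the scale. With a minimum of 20 reads there were 616 and 549, with 500 reads 15 and 22, and with no minimum 2134 and 1778, as more or fewer genes were tested. Only genes with whole reads gave 53 and 69 of 2020, and the most-read entry of each symbol 143 and 158 of 2506; the cause of the latter was not tested. The total of non-ribosomal reads gave 121 and 72, with 62.7% of the calls higher against 44.97%. TMM over the IgG libraries gave 86 and 103, median of ratios 78 and 116, the upper quartile 86 and 102, and a pseudocount of 1 CPM 79 and 102. Chosen after the data were seen, leaving out overlapping genes gave 69 and 77, the chromosome 7 segment 85 and 98, and chromosome 17 81 and 83. Of 403 values of 53 named genes under an alternative, 336 stayed within their counting interval and 67 moved. No gene called at 2-fold turned direction, while 6 values of 4 uncalled genes (EIF4G2, PKM, TUBA1B and ATP5F1B) changed sign. The largest shift by scaling, 0.66 on CPM as deposited, is under 2-fold, so no scaling could turn a called gene. Other genes were not run singly. For list medians less that of all genes, 346 of 431 stayed, 23 values changed sign, and the largest move over the scalings was 0.045 for 41 lists. A scaling shifts nearly all genes alike and cancels in this difference, so a small move there was fixed in advance. Depth limits genes under 100 reads, of which those with 20 or more had 12.4% at or above 2-fold higher.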

Other observations

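Below the minimum of 100 reads, some genes had nearly all their reads in 1 IgG library; they were chosen after their values were seen and have no replicate check. IRX3, a homeodomain factor, had 40.6 reads in No Dox IgG and 1.00 in Dox IgG (-4.98), and DEPDC5, a subunit of the GATOR1 complex that restrains mTORC1, had 27.9 reads and under 1, at least 11.99-fold lower against a floor of 3 reads in Dox IgG. DAPK2, a death-associated kinase, had 29.7 reads and under 1 full read. CLASP2, which stabilises microtubule ends, had under 1 read in No Dox IgG and 54.3 in Dox IgG, at least 14.03-fold higher against the same floor in No Dox IgG. OAT, ornithine aminotransferase, was at least 8.03-fold higher with 31.1 reads, and CELF4, a splicing regulator, at least 8.004-fold with 31.0 reads. Apart from CELF4, these genes held fractions of reads.

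Of 29 zinc finger genes named ZNF with 100 reads, 3 were higher and 2 lower (2.82% and 3.46% of all genes). ZNF462 (1.01), ZNF121 (1.16) and ZNF800 (1.23) were higher, and ZNF385A (-1.73) and ZNF362 (-1.43) were lower, the latter overlapping AZIN2. Of the kinesins and collagens, the best counted, KIF1C with 426 and 505 reads and COL6A1 with 279 and 284, were at -0.12 and -0.34.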
